A study of Mus musculus with 2 samples.

Results

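The subject is 10 genes that mark the oligodendrocyte lineage of the brain, taken in order from early precursor to committed stage: Olig1, Olig2, Nkx2-2, Pdgfra, Cspg4, Lhfpl3, Neu4, Gpr17, Bcas1 and Enpp6. They were found by symbol in a deposited table of mouse gene expression, and all 10 of 10 were among its 15953 genes. The samples were neural stem cells in suspension culture, with 1 library labelled Hikeshi cKO (conditional knockout) and 1 library labelled wild type. Hikeshi is the nuclear import carrier of HSP70 proteins, and the series asks how its lack affects the proliferation and differentiation of these cells. The sources used here give neither the strain, age and number of the animals nor the Cre driver and the deleted exons, and nothing in them says whether a library came from 1 or several animals.

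Oligodendrocytes wrap axons in myelin. They come from neural stem cells by way of oligodendrocyte precursors, dividing cells that carry the receptor for platelet-derived growth factor (PDGF), and then by way of committed, non-dividing cells that switch on another set of genes before myelin proteins are made. The basic helix-loop-helix factors OLIG1 and OLIG2 open this path and are also made by neural progenitors kept in culture, whereas Gpr17, Bcas1 and Enpp6 are known for the short window between precursor and myelinating cell.

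The libraries held 18912683 reads (cKO) and 18839079 reads (wild type). Levels are given as CPM, reads per 1000000 reads counted, and differences as log2((cKO CPM + 1)/(wild-type CPM + 1)), which understates the difference of low genes. The filter asked for 1 CPM in at least 1 library, and it left 12618 genes and all 10 members. Neu4 and Enpp6 passed it only through the wild-type library, so at their levels they had to be lower in the other. With 1 library per group there was no replicate error and no test between genotypes. Each ratio carries a 95% counting interval that compares these libraries and covers counting error only. Hikeshi itself had 640 reads in cKO-labelled cells and 718 in wild-type-labelled cells, a ratio of 0.888 (0.797 to 0.989), and counts over a whole gene do not show whether some of its exons are deleted. The Y-linked gene Eif2s3y had 1265 reads (cKO) against 0 (wild type), so the sex-linked difference and the genotype label cannot be told apart for any gene below.

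Every one of the 10 genes was lower in cKO-labelled cells, but by very different amounts. The 4 committed-stage genes together had 194 reads in cKO-labelled cells and 11317 in wild-type-labelled cells, a sum 58.6-fold lower (50.8 to 67.8). This sum rests mostly on Gpr17, with 71 (cKO) and 7423 (wild type) reads, and Bcas1, with 121 (cKO) and 3467 (wild type). The 6 early genes together had 49285 (cKO) and 56340 (wild type) reads, a sum 1.15-fold lower (1.13 to 1.16). Most of these reads, 41381 (cKO) and 43635 (wild type), came from Olig1 and Olig2. The other 4 early genes together had 7904 (cKO) and 12705 (wild type) reads, 1.61-fold lower (1.57 to 1.66). Committed-stage genes thus took 0.392% of the reads of the 10 genes in cKO-labelled cells (exact binomial interval 0.339 to 0.451) and 16.7% in wild-type-labelled cells (16.4 to 17.0). In bulk RNA, fewer cells of a type and less RNA per cell cannot be told apart.

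Of the 10 genes 5 were at least 2-fold lower (Pdgfra and the 4 committed-stage genes) and 0 were at least 2-fold higher, against 3.85% of all kept genes at least 2-fold lower and 1.25% higher. At 1.5-fold 6 were lower and 0 higher, against 10.2% lower and 4.22% higher among all kept genes. Both counts of lower genes include Neu4 and Enpp6. These passed the filter only through the wild-type library, so at their levels they had to be lower. The median log2 difference was -1.39 over the 10 genes (-1.74 with Neu4, at 0 reads, set to its bound), -0.36 over the 6 early and -4.42 over the 4 committed-stage genes. Over all kept genes it was -0.02, and 6581 of them lay below 0.

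**Figure D1:**
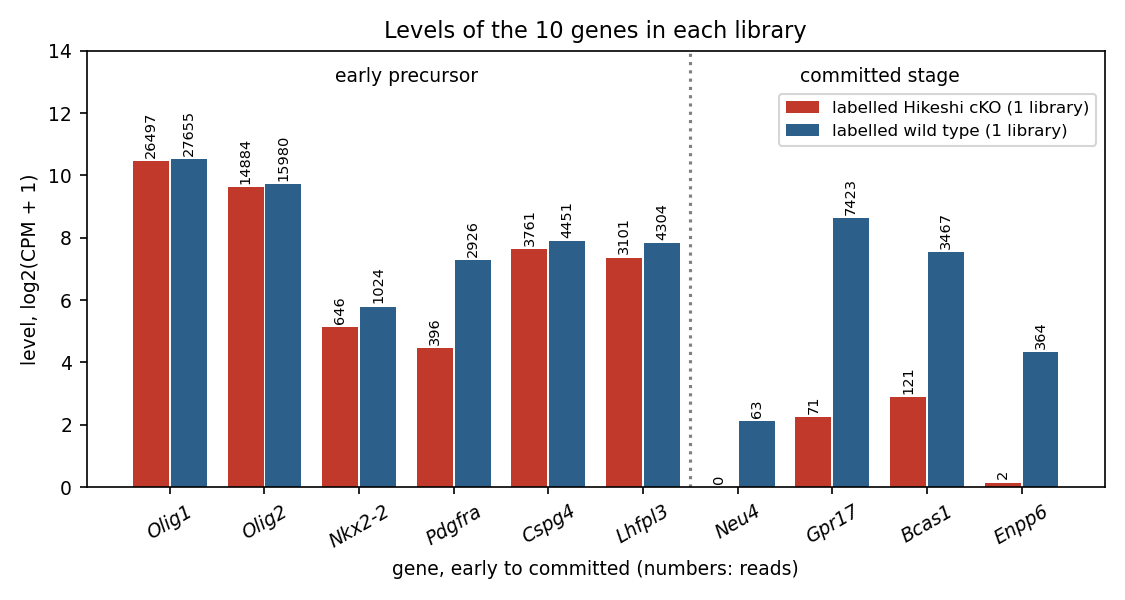
Level of each gene as log2(CPM + 1), in stage order, in cells labelled Hikeshi cKO (red, left) and cells labelled wild type (blue, right), 1 library each, with the number of reads above each bar. Olig1 and Olig2 have bars of nearly equal height, while the bars of Gpr17 (71 against 7423 reads), Bcas1 (121 against 3467) and Enpp6 (2 against 364) stand far apart.

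Olig1 and Olig2 differed least of the 10 genes. Olig1, a gene of 1 exon on chromosome 16 (91269769 to 91271939, GRCm38.p6), had 26497 reads in cKO-labelled cells and 27655 in wild-type-labelled cells, or 1401 (cKO) and 1468 (wild type) CPM. The ratio of its levels was 0.954 (0.938 to 0.971). Olig2, which specifies the lineage and lies 41091 bases from Olig1 (chromosome 16, 91225550 to 91228677), had 14884 reads (cKO) and 15980 reads (wild type), or 787 (cKO) and 848 (wild type) CPM. Its ratio was 0.928 (0.907 to 0.949), and the intervals of both genes lay below 1. Per length, Olig1 stood at 2.03 times the TPM of Olig2 in cKO-labelled cells and at 1.98 times in wild-type-labelled cells, so the pair kept its proportion.

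Nkx2-2, a homeodomain factor that acts with OLIG2 and promotes the step to differentiation, was further apart. It had 646 reads (34.2 CPM) in cKO-labelled cells and 1024 reads (54.4 CPM) in wild-type-labelled cells. It was 1.59-fold lower (1.44 to 1.76), and it was the only one of the 3 early transcription factors past 1.5-fold.

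Among the surface proteins of precursors, the growth factor receptor stood apart from the others. Pdgfra, the PDGF receptor alpha on which precursors depend for division and survival (chromosome 5, 75151322 to 75198206), had 396 reads in cKO-labelled cells and 2926 in wild-type-labelled cells. This corresponds to 20.9 (cKO) and 155 (wild type) CPM, a level 7.42-fold lower (6.68 to 8.26). Cspg4, the proteoglycan NG2 found on the same precursors, had 3761 reads (199 CPM) in cKO-labelled cells and 4451 reads (236 CPM) in wild-type-labelled cells, with a ratio of 0.842 (0.806 to 0.879). Lhfpl3, a tetraspan membrane protein gene used as a precursor marker, had 3101 reads (164 CPM) in cKO-labelled cells and 4304 reads (228 CPM) in wild-type-labelled cells, with a ratio of 0.718 (0.685 to 0.752). The counting intervals of Pdgfra, Cspg4 and Lhfpl3 did not overlap each other.

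The order of the genes by stage was therefore not the order of their differences, because Pdgfra exceeded Cspg4 and Lhfpl3, which follow it. Per length, Cspg4 had 7.61 times the TPM of Pdgfra in cKO-labelled cells and 1.22 times in wild-type-labelled cells. Lhfpl3 had 17.6 times the TPM of Pdgfra (cKO) and 3.31 times (wild type). Pdgfra is also made by fibroblasts and Cspg4 by pericytes, so the markers of those cells were read alongside. Of the 10 pericyte and fibroblast markers 9 were listed, with a summed level of 16.1 CPM in cKO-labelled cells and 34.2 CPM in wild-type-labelled cells. The 3 kept were all lower: Notch3, a receptor of mural cells and also of neural progenitors, was 2.27-fold lower (1.93 to 2.67), and Pdgfrb and Rgs5 were 2.06-fold (1.400 to 3.07) and 2.15-fold lower (1.11 to 4.39). Pdgfrb and Rgs5 were named after their values were seen. The 6 others stayed under the filter in both libraries. The part of these cells in the values of Pdgfra and Cspg4 was not tested.

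The 4 genes of the committed stage had the lowest levels per length of the 10 in cKO-labelled cells. Neu4, a sialidase that trims sialic acid from glycoproteins and glycolipids, had 0 reads in cKO-labelled cells and 63 in wild-type-labelled cells (3.34 CPM). A count of 0 allows up to 0.159 CPM at 3 reads, against which Neu4 was at least 21.1-fold lower, and the lower counting limit was 16.6. It is the scarcest member, and its log2 difference with 1 CPM added was only -2.12.

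Gpr17, a G protein-coupled receptor that is switched on in differentiating precursors and off again before myelination, had 71 reads (3.75 CPM) in cKO-labelled cells and 7423 reads (394 CPM) in wild-type-labelled cells. It was 105-fold lower (83.1 to 135). Its log2 difference of -6.38, with 1 CPM added, was the lowest of all 12618 kept genes. That place depends on the added value. LOC102641031 (0 reads in cKO, 1106 in wild type) and Gdf1 (0 and 600) had lower counting limits of 300-fold and 163-fold, above the upper limit of Gpr17. Gpr17 (chromosome 18, 31942999 to 31949890) lies inside Lims2, on the opposite strand. Lims2 had 9 reads (cKO) and 467 (wild type), 52.1-fold lower (27.2 to 115), and without a known strand setting the reads of the pair may not be separable.

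Bcas1, a marker of early myelinating oligodendrocytes (chromosome 2, 170343973 to 170427911), had 121 reads (6.40 CPM) in cKO-labelled cells and 3467 reads (184 CPM) in wild-type-labelled cells, 28.8-fold lower (24.0 to 34.8). Enpp6, a choline phosphodiesterase of newly forming oligodendrocytes (chromosome 8, 46939197 to 47096762), had 2 reads (0.106 CPM) in cKO-labelled cells and 364 reads (19.3 CPM) in wild-type-labelled cells. With so few reads its ratio of 0.00547 has a wide interval (0.000660 to 0.0199), which does not separate it from that of Gpr17 (0.00743 to 0.0120). The interval of Bcas1, 0.0288 to 0.0417, lay above that of Gpr17.

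**Figure D2:**
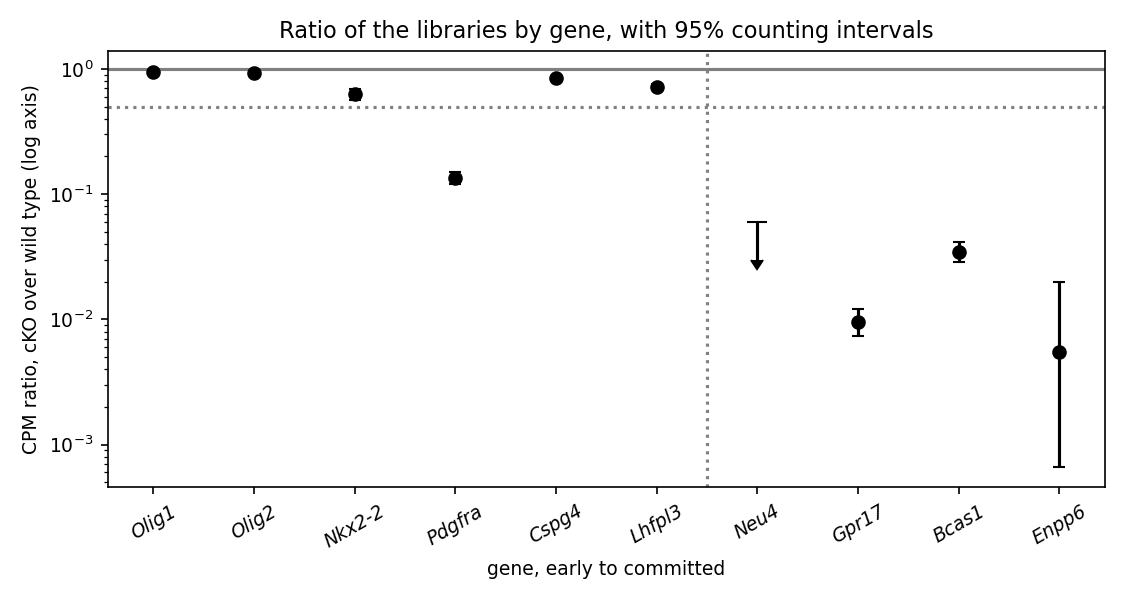
Ratio of CPM, cKO over wild type, on a log axis for each gene in stage order, with 95% counting intervals (1 library each). The solid line marks 1 and the dotted horizontal line 0.5, and the arrow of Neu4 starts at its upper limit of 0.0601. Pdgfra, at 0.135, is the single early gene below the dotted line, and all 4 committed-stage genes lie below Pdgfra.

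In the ranking of all 12618 kept genes by log2 difference, lowest first, Gpr17 was at rank 1, Bcas1 at rank 6, Enpp6 at rank 7, Pdgfra at rank 28 and Neu4 at rank 66. Nkx2-2 stood at rank 1078, Lhfpl3 at 1691, Cspg4 at 3161, Olig2 at 4848 and Olig1 at 5460. With 1 CPM added, the 10 genes thus ran from the extreme of this ranking to near its middle. The members on either side of the 2-fold limit were Nkx2-2 (log2 difference -0.65) and Neu4 (-2.12), with none between.

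**Figure D3:**
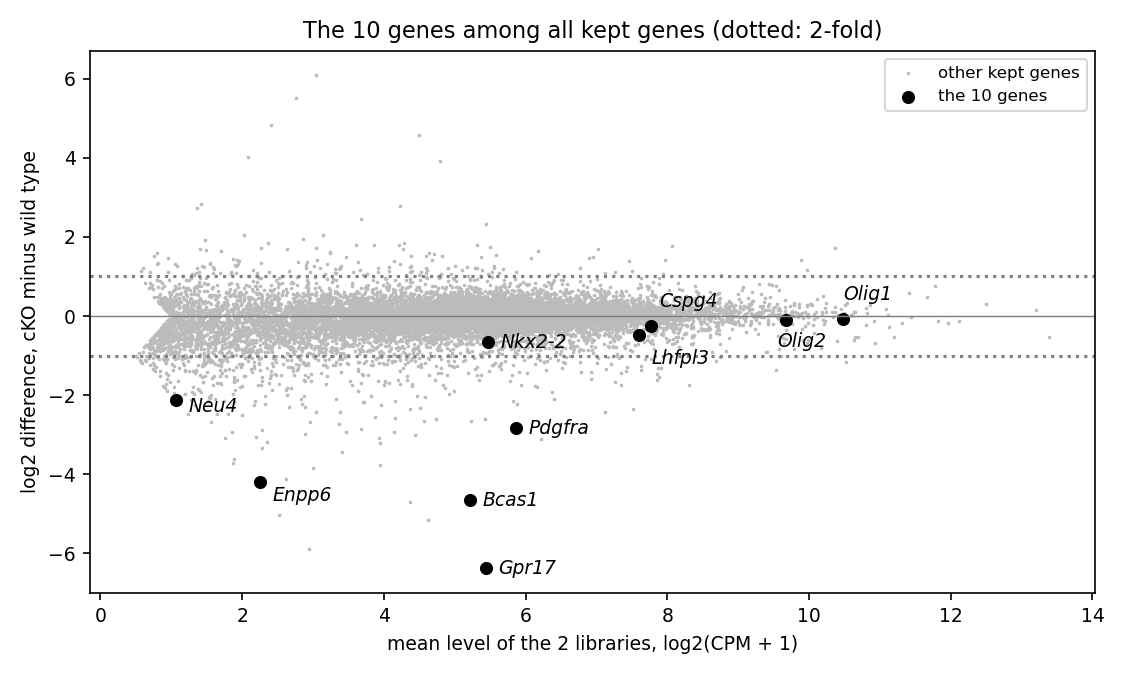
Log2 difference, cKO minus wild type, against the mean of log2(CPM + 1) over the 2 libraries for the 12618 kept genes, with the 10 genes in black and dotted lines at 2-fold. Olig1, Olig2 and Cspg4 sit within the grey band of most genes, and Gpr17 is the lowest point of the plot.

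Per length, on the authors' TPM scale, the order of the levels also differed between the libraries. In cKO-labelled cells it ran Olig1 (1223 TPM), Olig2 (601), Lhfpl3 (96.5), Cspg4 (41.8), Nkx2-2 (30.5), Pdgfra (5.49), Bcas1 (3.81), Gpr17 (1.25), Enpp6 (0.04) and Neu4 (listed at 0). In wild-type-labelled cells it ran Olig1 (1279 TPM), Olig2 (646), Lhfpl3 (134), Gpr17 (131), Bcas1 (109), Cspg4 (49.4), Nkx2-2 (47.3), Pdgfra (40.5), Enpp6 (7.26) and Neu4 (1.29). Gpr17 and Bcas1 stood directly behind Lhfpl3 in wild-type-labelled cells and behind Pdgfra in cKO-labelled cells. Without replicates it cannot be said which neighbours in these orders differ beyond the spread between cultures.

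A readout that the choice of genes did not use is the transcript length implied by reads and FPKM together. For Olig1 it was 1865 bases (cKO) and 1856 (wild type), and for Olig2 2131 (cKO) and 2122 (wild type). For Cspg4 it was 7744 (cKO) and 7736 (wild type), for Lhfpl3 2765 (cKO) and 2757 (wild type), and for Bcas1 2734 (cKO) and 2723 (wild type). Most genes had such gaps: over 4324 kept genes with at least 20 FPKM in both libraries the median gap was 8.56 bases, cKO minus wild type (quartiles 7.35 and 9.49). Nkx2-2 went the other way, with 1822 bases in cKO-labelled cells and 1856 in wild-type-labelled cells, a gap wider than the rounding of FPKM (1821 to 1822 against 1856 to 1857). Among the 4324 genes 154 had a gap at or below that of Nkx2-2. For Gpr17, at 4875 bases (cKO, 4844 to 4907 by rounding) and 4878 (wild type), and for Pdgfra, at 6213 (cKO, 6204 to 6222) and 6205 (wild type), the rounding of the low cKO values covers the difference. In cKO-labelled cells Enpp6 had too few reads for such a reading and Neu4 had none. All 10 genes had whole read counts in both libraries.

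Start regions were examined because several of the genes were low together. RefSeq promoter windows (GRCm38.p6, 250 bases before to 50 after a start) matched 7 of the 10 genes. Olig1, Gpr17 and Bcas1 were not matched. Windows of an early gene that hardly differed (Olig2), the early gene that differed most (Pdgfra) and the committed-stage genes Neu4 and Enpp6 are shown, 5′ to 3′ on the strand of the gene. Capitals mark the E-box CANNTG, the site class bound by OLIG proteins, the SOX core ACAAAG and the TATA-box letters TATAAA, each searched on both strands. The Enpp6 and Pdgfra windows lie inside the RefSeq span of their gene, at a start that is not its outermost.
Olig2 (chr16:91225300-91225599, plus strand): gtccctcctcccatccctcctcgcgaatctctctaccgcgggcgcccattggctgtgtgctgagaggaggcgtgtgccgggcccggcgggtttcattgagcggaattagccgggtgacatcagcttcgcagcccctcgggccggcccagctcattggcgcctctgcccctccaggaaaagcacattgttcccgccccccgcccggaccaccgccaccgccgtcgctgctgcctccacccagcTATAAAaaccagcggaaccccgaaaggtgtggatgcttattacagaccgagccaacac
Pdgfra (chr5:75152001-75152300, plus strand): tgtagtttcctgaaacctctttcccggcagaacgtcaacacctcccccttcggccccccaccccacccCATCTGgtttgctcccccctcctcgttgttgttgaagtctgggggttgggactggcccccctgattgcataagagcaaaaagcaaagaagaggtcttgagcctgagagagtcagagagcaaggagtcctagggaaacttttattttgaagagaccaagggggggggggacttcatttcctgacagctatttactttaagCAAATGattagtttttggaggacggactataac
Neu4 (chr1:94020243-94020542, plus strand): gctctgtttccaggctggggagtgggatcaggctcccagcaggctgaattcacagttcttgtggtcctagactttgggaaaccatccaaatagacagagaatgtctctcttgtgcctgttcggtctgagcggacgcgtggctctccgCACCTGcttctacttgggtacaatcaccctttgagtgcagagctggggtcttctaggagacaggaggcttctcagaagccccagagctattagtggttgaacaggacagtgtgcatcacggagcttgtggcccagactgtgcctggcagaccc
Enpp6 (chr8:46986637-46986936, plus strand): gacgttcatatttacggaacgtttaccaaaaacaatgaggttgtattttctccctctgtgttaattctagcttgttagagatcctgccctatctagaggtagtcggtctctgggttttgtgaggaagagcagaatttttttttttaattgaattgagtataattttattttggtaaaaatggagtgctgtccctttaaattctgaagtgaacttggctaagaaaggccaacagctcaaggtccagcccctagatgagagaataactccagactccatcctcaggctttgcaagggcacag

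The E-box CANNTG was found in 4 of the 7 windows (Nkx2-2, Lhfpl3, Pdgfra and Neu4), against 72.3% of all 32851 windows. The stricter forms, which are also counted as CANNTG, were rarer: CAGCTG was in 1 of the 7, that of Lhfpl3, against 16.3% of all, and CATATG in 0, against 3.91%. The SOX core ACAAAG was in 0 of the 7, against 18.7% of all windows, and TATAAA in 1, that of Olig2, against 13.6%. A match in such a window is a run of letters and no measured binding.

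Genes next to the members on the chromosome mostly differed by less than 1.5-fold. Of 12 kept neighbours that do not overlap a member 1 passed 2-fold downwards and 0 upwards, against 3.85% and 1.25% of all kept genes. At 1.5-fold 3 were lower and 0 higher, against 10.2% and 4.22%. The median log2 difference of the 12 was -0.16, against -0.02 over all kept genes. Ifnar2, beside Olig1, had 494 reads (cKO) and 457 (wild type). Irf2, before Enpp6, had 429 (cKO) and 426 (wild type) reads, Stox2, after it, 2991 (cKO) and 3007 (wild type), and Zfp217, beside Bcas1, had 110 (cKO) and 145 (wild type) reads. The 3 neighbours at least 1.5-fold lower lay beside Pdgfra and Olig2. Kit, a related receptor tyrosine kinase, had 191 (cKO) and 376 (wild type) reads and was 1.98-fold lower (1.66 to 2.36), and Gsx2, a homeobox gene of ventral forebrain progenitors, had 8 (cKO) and 28 (wild type) reads, 3.51-fold lower (1.56 to 8.92). On the far side of Olig2 from Olig1, 4932438H23Rik had 2 (cKO) and 25 (wild type) reads, a ratio of 0.0797 (0.00915 to 0.320).

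Most kept relatives of the members, from the same gene families, differed by less than 1.5-fold. Of 31 relatives 14 were kept, with a median log2 difference of -0.25. At 1.5-fold 4 of the 14 were lower and 1 higher, against 10.2% lower and 4.22% higher among all kept genes. Enpp2, which encodes autotaxin and is also made by oligodendrocytes, was 3.45-fold lower in cKO-labelled cells (3.15 to 3.78), and the brain proteoglycan gene Cspg5 1.90-fold lower (1.83 to 1.96). Lhfp, of the same family as Lhfpl3, was higher, with 2113 reads (cKO) and 1157 (wild type), a ratio of 1.82 (1.69 to 1.96).

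Within the PDGF pathway, Pdgfra and the gene of its ligand differed in opposite directions, while most of the pathway genes stayed within 1.5-fold. Of 11 kept ligands, receptors and adaptors 2 passed 1.5-fold downwards and 2 upwards, against 10.2% and 4.22% of all kept genes. The median of the 11 was 0.01. The 2 lower genes were Pdgfra itself and Pdgfrb. Pdgfa, the ligand of the PDGF receptor alpha, had 750 reads in cKO-labelled cells and 398 in wild-type-labelled cells, a ratio of 1.88 (1.66 to 2.13). Nrp1, a co-receptor of several growth factors, had 1495 (cKO) and 771 (wild type) reads, a ratio of 1.93 (1.77 to 2.11). Pdgfra, counted in that list too, was thus low in the library in which its ligand gene was high.

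Other genes known from oligodendrocyte precursors were lower in most cases. All 19 fixed genes were kept. At 1.5-fold 13 of them were lower and 0 higher, against 10.2% and 4.22% of all kept genes, and the median was -0.75. Sox10, the SOX factor that drives myelin genes together with MYRF, had 60 reads (cKO) and 1046 (wild type), 17.5-fold lower (13.5 to 23.1). Luzp2 was 11.3-fold lower (8.98 to 14.5), the secreted C1q-like gene C1ql1 9.83-fold (7.47 to 13.1) and the matrix protein gene Matn4 15.3-fold (9.10 to 27.8).

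Of 18 kept genes of committed and newly formed oligodendrocytes outside the members, 13 passed 1.5-fold downwards and 1 upwards, against 10.2% and 4.22% of all kept genes. The median of the 18 was -1.14, also with the 1 gene at 0 reads set to its bound. Lims2, which overlaps Gpr17, is among the 13, and its reads may not be separable from those of Gpr17. Tmem163, a zinc transporter gene, had 3 reads (cKO) and 166 (wild type), a ratio of 0.0180 (0.00368 to 0.0535). Myrf, the regulator of myelin genes, was 5.41-fold lower (4.43 to 6.66) and the cell adhesion gene Nfasc 3.18-fold (2.89 to 3.50), while the small GTPase gene Rras2 was higher (ratio 1.54, 1.37 to 1.72). Of 12 mature myelin genes 7 were kept. At 2-fold 5 of them were lower and 0 higher, against 3.85% and 1.25% of all kept genes. Mag, among the 5, passed the filter only through the wild-type library. Another of the 5, the tight junction gene Cldn11, had 66 (cKO) and 439 (wild type) reads and was 6.68-fold lower (5.15 to 8.79).

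Factors that promote the lineage were split in sign, but those past 1.5-fold were all lower. Of 17 kept, 7 lay below 0 and 10 above, with a median of 0.01. At 1.5-fold 5 of the 17 were lower and 0 higher, against 10.2% lower and 4.22% higher among all kept genes. The 5 included Sox10. The others were Zfp488 at 2.498-fold lower (2.16 to 2.90), Nkx6-2 at 2.38-fold (1.53 to 3.77, named after its value was seen), Sox9 at 1.66-fold (1.58 to 1.74) and Sox8 at 1.61-fold (1.55 to 1.69). Sox10 was already counted among the precursor genes, and Zfp488 and Nkx6-2 among the committed and newly formed oligodendrocyte genes. Of 12 factors that restrain the lineage 3 passed 1.5-fold downwards and 1 upwards, with a median log2 difference of -0.34. Hes5, a NOTCH target, was 2.57-fold lower (2.25 to 2.93), Sox6 1.96-fold lower (1.86 to 2.07), and Sox11, a factor of immature neural cells, higher (ratio 1.51, 1.44 to 1.59).

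**Figure D4:**
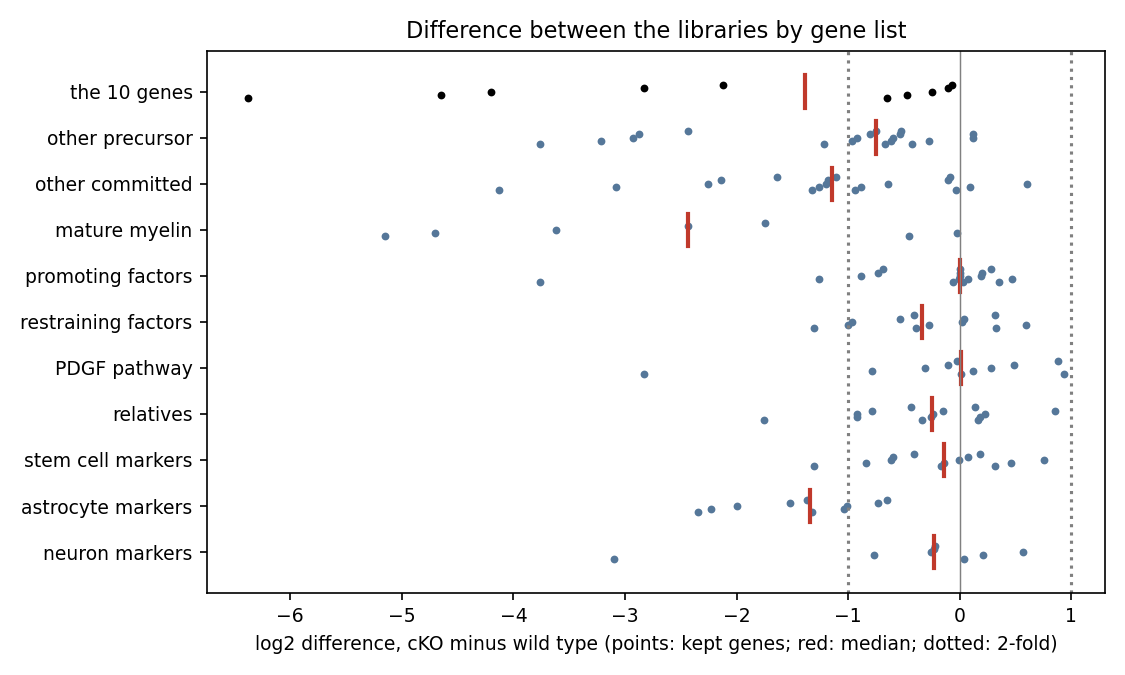
Log2 difference, cKO minus wild type, of each kept gene (points) by list, with the median of each list as a red bar and dotted lines at 2-fold. The 10 genes have a median of -1.39, the mature myelin genes -2.44 and the astrocyte markers -1.35, while the medians of the promoting factors and the PDGF pathway lie around 0.

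The labelled cell type was read from its markers. All 13 fixed neural stem cell markers were kept, and they summed to 8700 CPM in cKO-labelled cells and 7853 CPM in wild-type-labelled cells. Vim alone gave 4578 (cKO) and 2716 (wild type) CPM of these sums. By gene, 8 of the 13 had log2 differences below 0 and 5 above, so the higher cKO sum is not a shared rise. Sox2 had 7633 (cKO) and 7659 (wild type) reads and Nes 14759 (cKO) and 10717 (wild type) reads, so both libraries carried these stem cell genes. Of the 13 markers 4 passed 1.5-fold downwards and 1 upwards (median -0.14), against 10.2% and 4.22% of all kept genes. Those past 1.5-fold included Hes5, Prom1 at 1.92-fold lower (1.52 to 2.45) and the intermediate filament gene Vim, with a ratio of 1.69 (1.67 to 1.70). Astrocyte markers moved with the members: all 10 were at least 1.5-fold lower, against 10.2% of all kept genes. Gjb6, among the 10, passed the filter only through the wild-type library. The sum of the 10 was 1583 CPM (cKO) and 3502 CPM (wild type), with none at 0 reads. Gfap, the astrocyte filament gene, had 1519 (cKO) and 7765 (wild type) reads. The part of that difference in the values of the 10 genes was not tested. Among neuron markers 2 of 8 kept were at least 1.5-fold lower and 0 higher (median -0.23), against 10.2% and 4.22% of all kept genes. They were split in sign, with 5 of the 8 below 0 and 3 above. Dcx, a gene of migrating neuroblasts, was 10.3-fold lower (8.21 to 13.2) while Tubb3 had 327 (cKO) and 393 (wild type) reads. Microglia markers summed to 5.13 (cKO) and 3.34 (wild type) CPM and endothelial markers to 3.91 (cKO) and 2.23 (wild type) CPM, and Schwann cell markers, which bear on Sox10, to 42.2 (cKO) and 57.0 (wild type) CPM.

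The genes with log2 differences nearest to those of 2 members were taken from 8310 genes outside all lists that reached 20 CPM in a library. With 2 libraries, likeness means closeness of a single difference. Nearest to Pdgfra (-2.83) were Tmem132b (-2.86), Cdkn1c (-2.94), Epb41l3 (-2.72), Slc16a3 (-3.02) and Igfbp5 (-2.65). Nearest to Bcas1 (-4.64) were Gdf1 (-5.04), Phactr3 (-3.85), Tmem100 (-3.45), LOC102641031 (-5.90) and Vxn (-3.12). The gaps around Bcas1 were wide, up to 1.53, and few genes lay that low. Gdf1 and LOC102641031 had 0 reads in cKO-labelled cells, so their differences depend on the added value, and Gdf1 shares its locus with Cers1.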

How the data were processed

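Total RNA of 1 library labelled Hikeshi cKO and 1 labelled wild type was sequenced, and each column was assigned by the genotype in its name. The authors deposited, per the file headers, an estimated count of reads per gene, TPM, FPKM and a signal called a normalized read count. Per the submitters' processing notes the build is GRCm38.p6. The sources used here name no aligner, counter, annotation or strand setting.

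Estimated counts were rounded to whole reads and divided by the column totals. Ratios are of CPM, with 95% conditional Clopper-Pearson intervals. Reads may be copies of one molecule where no molecular identifiers are used, and these intervals and the floor of 3 reads cover counting error only. The filter was 1 CPM in at least 1 library, the added value 1 CPM. Implied length is reads per FPKM and 1000000 reads. Of the listed genes 15909 were matched by number to RefSeq coordinates. The interval code was checked on simulated counts.

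The members, lists and thresholds were chosen with earlier results of these data known. Lists share genes (Sox10, Sox9, Hes5, Sox5, Sox6, Zfp488, Nkx6-2 and Pdgfra among them). Named were the members, Hikeshi, fixed anchor genes, neighbours, and per list up to 4 lower and 2 higher genes at least 1.5-fold apart with 5 CPM. Some of these are not reported here. Alternatives were TMM (edgeR 4.0.16) and median-of-ratios scaling (DESeq2 1.42.0), the deposited TPM, FPKM and signal, unrounded counts, other added values and filters, and Gpr17 summed with Lims2. Work was done in Python 3.11.15 (scipy 1.17.1) and R 4.3.3.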

Additional observations from a re-analysis of the deposited data

How the results depend on the processing

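Over the 11 alternatives 108 differences of single genes were recomputed, and all were below 0. Neu4 has no value with FPKM or with a filter of 5 CPM, because it then misses the filter, which leaves 9 genes. The number of genes at least 2-fold lower was 5 under 8 of them and 4 with FPKM, with 5 CPM added and with a filter of 5 CPM. The median log2 difference of the 10 genes was -1.39, and was -1.74 with Neu4 at the bound set by the floor. It was -0.91 with TPM, -0.62 with FPKM, -1.78 with 0.1 CPM added, -0.67 with 5 CPM added and -0.65 with a filter of 5 CPM. It lies midway between Nkx2-2 and Neu4 with TPM and with 5 CPM added, between Nkx2-2 and Pdgfra with 0.1 CPM added and at the bound, and on Nkx2-2 itself where Neu4 is missing. The ratio of the summed early genes was 0.871, and 0.910 with TPM and 0.904 with FPKM. The ratio of the summed committed-stage genes was 0.0171, and 0.0205 with TPM and 0.0204 with FPKM, since per-length units weight the genes differently. Low genes depended most on the added value: Neu4 ranged from -5.11 to -0.74 and Enpp6 from -6.56 to -2.25, whereas Olig1 stayed between -0.07 and -0.05. No paired analysis was possible because each group had 1 library and no test was made, and for the same reason no library could be left out. Depth limits Neu4 and Enpp6, with 0 and 2 reads in cKO-labelled cells.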
